A study of Mus musculus with 15 samples.

Results

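The RNA of plasma extracellular vesicles (EVs) from hypertrophic mice was compared with that from dystrophic mice, gene by gene, in the 12 libraries whose titles name one of these conditions, 6 on each side, of the 15 libraries of the series. EVs are small membrane-bound particles that cells release into the blood, and they carry fragments of the RNA and protein of the cells they came from. The dystrophic mice were labelled Sgcb null, which lack β-sarcoglycan, a protein that anchors the muscle cell membrane. The hypertrophic mice were labelled MAGIC F1, a transgene for an engineered factor that activates the Met receptor, whereas the study kept both these and Mstn-null mice, which lack the growth brake myostatin, as hypertrophic mice and names Mstn-null alone for RNA sequencing, so only the condition was used here. The other 3 libraries were from wild type (WT) mice. All mice were 3 to 6 months old, no treatment is named for them in the labels, and 1 library held the pooled EVs of 2 to 3 mice. No label says which mice were in which pool. The labels give serum and the study gives plasma as the starting fluid. The RNA was amplified before library preparation, so copies of 1 molecule can be counted more than once.

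Much of the RNA of circulating EVs comes from blood cells. Platelets shed EVs in large numbers and carry chemokine, integrin and tetraspanin transcripts, and reticulocytes, the last precursors of red cells, release EVs while they still hold hemoglobin mRNA. Ribosomal protein mRNAs are abundant in any cell that divides or grows, and mitochondria carry a small genome of their own whose transcripts are found in most cells. Muscle fibres can release EVs as well. As these are bulk samples, fewer vesicles of one origin and less RNA per vesicle cannot be told apart.

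Hypertrophic libraries held 328710 to 6461652 reads on genes (median, 3513267) and dystrophic libraries 1170610 to 32563362 (median, 2419660). Levels are given in CPM, a gene's reads scaled to a common library total. A count of 0 allowed up to 9.13 CPM in the shallowest of the 12 libraries and 0.0921 CPM in the deepest. The WT libraries held 27227 to 7738568 reads on genes. In the shallowest of them, WT replicate 1, a count of 0 allowed up to 110.2 CPM, so absence from WT libraries says little for rare genes. Dystrophic replicate 6 stood apart with 32563362 reads, while the other 5 dystrophic libraries had at most 2889759. Between 814 and 5710 genes had a read in a hypertrophic library and between 1103 and 8968 in a dystrophic one. In 6 libraries, replicates 1 to 3 of the hypertrophic and 4 to 6 of the dystrophic side, titles and deposited counts carried different numbers, and these were crossed between the conditions. By the numbers of the counts, all 6 dystrophic libraries and all 3 WT libraries belonged to a lower series and all 6 hypertrophic libraries to a higher series, so that condition and number series cannot be told apart with the labels as given. By the numbers in the titles, 3 libraries of each condition fell in the lower and 3 in the higher series. Each main result was therefore also computed without these 6 libraries and with their conditions exchanged.

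The genes that the models target could not serve as a check of the labels. Sgcb had no read in any of the 6 dystrophic libraries, but it also had none in 5 hypertrophic and all 3 WT libraries, and 695 reads (364.6 CPM) in hypertrophic replicate 3. Mstn, which encodes myostatin, and Hgf, the ligand of Met, had no read in any of the 12 libraries. Met was counted only in dystrophic replicate 2, with 250 reads. Of the EV markers, Cd9 was abundant in every library, whereas Cd63 and Cd81 were not: Cd63 reached at most 239.2 CPM in hypertrophic and 73.95 CPM in dystrophic libraries, and it was counted in 4 and 3 of 6 libraries, respectively.

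The EVs shared few genes from library to library. Of 12978 genes with a read in at least 1 of the 12 libraries, 3298 were seen in exactly 1 library and 214 in all 12. Only 155 genes had 10 or more counts in every library. Genes with 10 or more counts in at least 4 libraries of each condition, called broadly counted genes below, numbered 873. They held 74.8% ± 6.73 (SD, n = 6) of the gene reads in hypertrophic and 70.8% ± 8.60 (SD, n = 6) in dystrophic libraries. Even so, 616 of the 873 had no read in at least 1 hypertrophic library and 518 in at least 1 dystrophic library, and the median coefficient of variation between libraries of the same condition was 96.0% in hypertrophic and 79.6% in dystrophic EVs.

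Across all genes, 1 difference passed the test. With edgeR's quasi-likelihood test on 6887 genes, Hbb-bs, the adult β-globin, was lower in hypertrophic than in dystrophic EVs at a Benjamini-Hochberg adjusted p under 0.05, which is 0.0145% of the genes tested. At an unadjusted p under 0.05 there were 823 genes (12%), of which 39 were higher (0.566%) and 784 lower (11.4%) in hypertrophic EVs. Nearly all of the lower genes were scarcely counted in hypertrophic EVs, since 758 of the 784 had 3 counts or fewer in every hypertrophic library. Hypertrophic libraries missed more genes in general: 2869 of the genes tested had 10 or more counts in at most 1 hypertrophic library, against 544 in at most 1 dystrophic library. The biological coefficient of variation, edgeR's estimate of the spread between libraries of a condition, was 3.04. These counts depended on the fit. With the 12 libraries alone, without WT, the expression filter left 2573 genes, of which 20 were at an unadjusted p under 0.05, and Hbb-bs kept its call (edgeR adjusted p = 0.0374). DESeq2 called 323 genes after adjustment, of which 302 were lower and 298 of those had 3 counts or fewer in every hypertrophic library, and it called neither Hbb-bs (DESeq2 adjusted p = 0.9999) nor any other broadly counted gene.

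Among the 873 broadly counted genes differences lay on both sides of 0. Their median log2 fold change, hypertrophic over dystrophic, was -0.02, with 426 genes above and 447 below 0 and with quartiles of -0.60 and 0.50, while the median over all genes tested was -0.52. Of all 6887 genes tested, 2575 were above and 4312 below 0, so a list of sparse genes is set against that share. The standard error of a typical broadly counted gene was 1.62 on the log2 scale, larger than its fold change in most cases, and 678 of the 873 genes lay within 1 log2 unit of 0. An unadjusted p under 0.05 was reached by 12 of them (1.37%), 3 higher and 9 lower. The plot of fold change against level shows these genes close to 0 and the arms of genes counted on 1 side only.

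**Figure D1:**
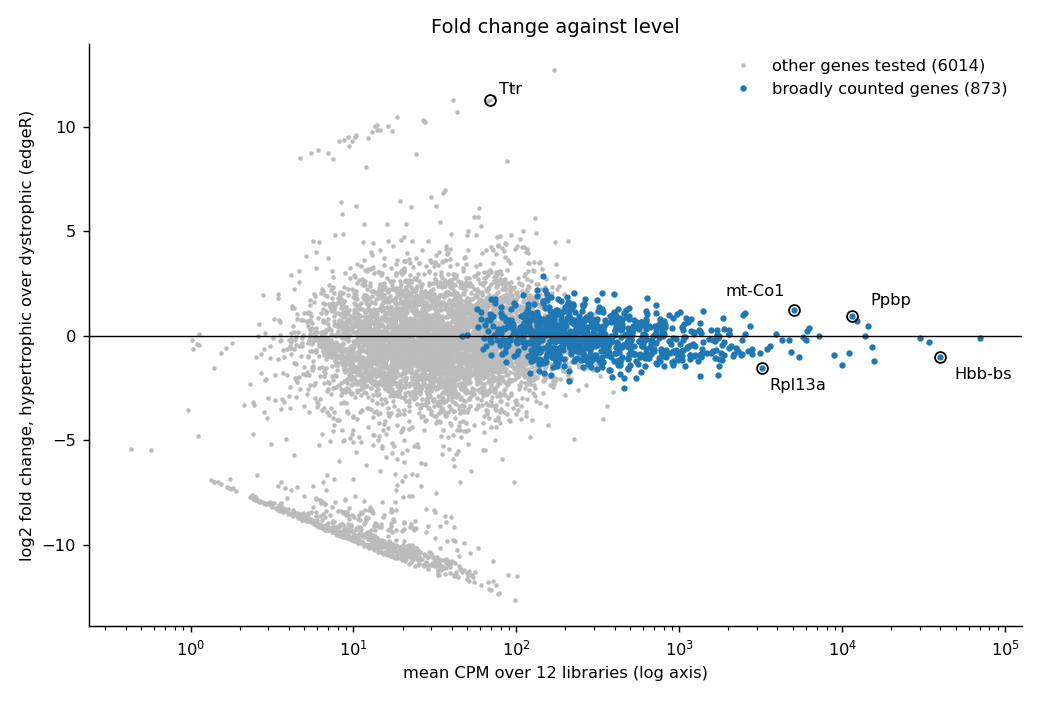
Fold change (edgeR, log2 of hypertrophic over dystrophic) of the 6887 genes tested against their mean level over 12 libraries in CPM on a log axis, with the 873 broadly counted genes in blue and the rest in grey. The blue points centre on a median of -0.02, and the dense lower arm holds genes with next to no reads in hypertrophic libraries.

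Hemoglobin mRNA was lower in hypertrophic EVs. Hemoglobin carries oxygen in red cells as a tetramer of α- and β-chains, and 4 adult genes were counted, Hbb-bs and Hbb-bt for β-chains and Hba-a1 and Hba-a2 for α-chains. Hbb-bs (mm10, chr7:103826534-103828096, minus strand) ran from 15930 to 46530 CPM in hypertrophic libraries with a median of 25940, and from 31370 to 75120 CPM in dystrophic libraries with a median of 39000. Of the 6 hypertrophic libraries, 4 lay below every dystrophic one, and the other two, replicates 3 and 5, lay inside the dystrophic range. The log2 fold change was -1.01 ± 0.20 (SE; edgeR adjusted p = 0.00306). The WT libraries ran from 11330 to 46420 CPM. The call did not hold when dystrophic replicate 1, 2, 4 or 5 was left out (edgeR adjusted p = 0.206, 0.151, 0.111 and 0.103) or hypertrophic replicate 1 or 6 (edgeR adjusted p = 0.19 and 0.119), and the fold change stayed between -1.21 and -0.88 with any 1 library left out.

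The other hemoglobins had the same direction and did not pass the test, although Hba-a1 did once WT replicate 1 or dystrophic replicate 3 was left out. Hba-a1 ran from 7503 to 15970 CPM (median, 11110) in hypertrophic and from 7020 to 37750 CPM (median, 18190) in dystrophic libraries, a log2 fold change of -1.21 ± 0.31 (SE; edgeR adjusted p = 0.123). Hba-a2 had medians of 6450 and 10530 CPM and a log2 fold change of -1.38 ± 0.39 (SE; edgeR adjusted p = 0.123). Hbb-bt had medians of 3620 and 6853 CPM and a log2 fold change of -1.03 ± 0.49 (SE; edgeR adjusted p = 0.317). The lowest dystrophic library for all 4 genes was replicate 3, and the highest was replicate 4, whose number is among the crossed ones. Summed, the 4 hemoglobins made up 28490 to 81090 CPM in hypertrophic and 44860 to 152700 CPM in dystrophic libraries, a ratio of means of 0.591.

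The copies within each pair are hard to separate by sequence, which limits what their separate counts can say. The coding sequences of Hbb-bs and Hbb-bt (GENCODE M21, mm10) differ at 1 of 441 bases, the substitution C417T counted from the A of the start codon of Hbb-bs, and those of Hba-a1 and Hba-a2 at 1 of 426 bases, C381T. The stretches around these positions are shown 5′ to 3′ with the differing base in capitals, bases 387 to 441 of the β-chains and 351 to 411 of the α-chains, because no other coding base tells the copies apart.
Hbb-bs: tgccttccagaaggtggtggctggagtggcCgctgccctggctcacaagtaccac
Hbb-bt: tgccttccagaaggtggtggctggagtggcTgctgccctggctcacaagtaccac
Hba-a1: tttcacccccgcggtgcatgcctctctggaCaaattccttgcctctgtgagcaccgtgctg
Hba-a2: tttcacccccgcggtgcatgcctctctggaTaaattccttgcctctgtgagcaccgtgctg
The reads were 50 bases long, and 93.6% of all 50-base windows of the Hbb-bs coding sequence occur unchanged in Hbb-bt, as do 87.8% of those of Hba-a1 in Hba-a2. Over whole transcripts, untranslated ends included, the share is 65.8% for Hbb-bs and 67.5% for Hba-a1. The summary lines of the deposited counts include a class for alignments that were not unique, but the counting settings are not given in the sources used here. The split within a pair is therefore uncertain, and the sum of a pair may miss reads that fit both copies.

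The 4 hemoglobin genes had the same direction, and the 100 bases before their transcription starts (RefSeq, GRCm38.p6) are shown beside those of Ppbp, the gene described next, whose estimate had the opposite direction. Capitals mark a match on either strand to CACCC (a box bound by erythroid Krüppel-like factors) or CCAAT (a box of many promoters), and the TATA-like motif ATATAA is in capitals as well. The coordinates are chr7:103827929-103828028 (minus strand) for Hbb-bs, chr7:103813924-103814023 (minus) for Hbb-bt, chr11:32283572-32283671 (plus) for Hba-a1, chr11:32296392-32296491 (plus) for Hba-a2 and chr5:90768418-90768517 (plus) for Ppbp.
Hbb-bs: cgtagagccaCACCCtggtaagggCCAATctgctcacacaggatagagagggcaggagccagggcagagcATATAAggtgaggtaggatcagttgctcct
Hbb-bt: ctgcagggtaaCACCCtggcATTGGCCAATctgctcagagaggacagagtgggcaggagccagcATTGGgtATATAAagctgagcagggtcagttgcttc
Hba-a1: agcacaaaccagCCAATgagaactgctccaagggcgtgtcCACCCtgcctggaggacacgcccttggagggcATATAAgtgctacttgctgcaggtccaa
Hba-a2: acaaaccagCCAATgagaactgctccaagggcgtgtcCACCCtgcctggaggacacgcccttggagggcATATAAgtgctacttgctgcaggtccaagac
Ppbp: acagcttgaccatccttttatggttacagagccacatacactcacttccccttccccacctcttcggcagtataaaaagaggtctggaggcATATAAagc
Each of the 4 hemoglobin stretches holds CACCC, and so do 27.2% of the same stretches of 32851 RefSeq promoters. Each also holds CCAAT, which occurs in 18.9% of them, and the stretch of Hbb-bt holds it 3 times, 2 of them on the other strand (ATTGG). The motif ATATAA occurs in all 4 and in Ppbp, against 3.74% of all promoters, and Ppbp holds neither of the others. In Ppbp the match lies nearer to the transcription start than in the hemoglobin genes. The stretch tataaaa further upstream in Ppbp is unmarked because it is not an exact match. GATAAG, a motif of GATA factors that was searched as well, occurs in none of the 5 stretches and in 2.32% of all. A match describes the letters and not a bound site.

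Other red cell genes were mixed. Of 17 late erythroid and reticulocyte genes tested, 7 were above and 10 below 0 with a median log2 fold change of -0.28, and their summed level had a ratio of means of 1.18. Of 7 genes of heme synthesis and iron import, 3 were above and 4 below 0 (median, -0.85, and -0.12 without dystrophic replicate 1). Their summed level had a ratio of means of 0.629, near that of the hemoglobins, and 5 of 6 hypertrophic sums lay below every dystrophic one. Alas2, which encodes the first enzyme of heme synthesis in red cells, was at a median of 1313 CPM in hypertrophic and 3178 CPM in dystrophic libraries, and 5 of the 6 hypertrophic libraries lay below every dystrophic one, while replicate 3 reached 7058 CPM and lay above all of them. That library also had the highest Hbb-bs level of the hypertrophic side.

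Platelet mRNA was higher in hypertrophic EVs in summed level. Ppbp (mm10, chr5:90768518-90770063, plus strand) encodes pro-platelet basic protein, the precursor of a chemokine stored in platelet granules. It ran from 11370 to 20310 CPM (median, 16690) in hypertrophic and from 4857 to 8936 CPM (median, 6901) in dystrophic libraries. All 6 hypertrophic libraries lay above all 6 dystrophic ones, and the 3 WT libraries, from 9460 to 12380 CPM, lay above the dystrophic ones as well. Ppbp was the only gene with this pattern, 0.115% of the broadly counted genes and 0.0145% of the genes tested. The log2 fold change was 0.94 ± 0.36 (SE), which did not pass the test (edgeR adjusted p = 0.123), and after TMM scaling the libraries overlapped.

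Over the 28 platelet genes, all of them tested, 22 were above and 6 below 0 with a median log2 fold change of 0.54, beside -0.52 for all genes tested and -0.02 for the broadly counted genes, to which 22 of the 28 belong. Without hypertrophic replicate 1 the median was 0.12. Their sum ran from 33110 to 66570 CPM in hypertrophic and from 17140 to 41790 CPM in dystrophic libraries, a ratio of means of 1.73, and 4 of the hypertrophic libraries lay above every dystrophic one. At an unadjusted p under 0.05, 1 platelet gene was higher (Ppbp) and 1 lower, beside 0.566% and 11.4% of all genes. The lower one was Sparc, a matrix-binding protein also made by fibroblasts, with at most 169.3 CPM in hypertrophic and up to 1733 CPM in dystrophic libraries. Pf4, another platelet chemokine, had medians of 6787 and 3618 CPM, but its ranges overlapped and its log2 fold change was -0.05 (edgeR adjusted p = 0.9998). Within the lower title series 26 of the 28 genes were above 0 (median, 1.47, beside 0.33 for the broadly counted genes). Within the higher series 8 were (median, -0.73, beside -0.55), so the edgeR estimates of the list had opposite directions. Before TMM scaling, the sums of the higher series were 33110, 42800 and 47540 CPM in hypertrophic libraries. Those of the dystrophic libraries were 26340, 37000 and 41790 CPM, so the sums overlapped and did not turn with the estimates.

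**Figure D2:**
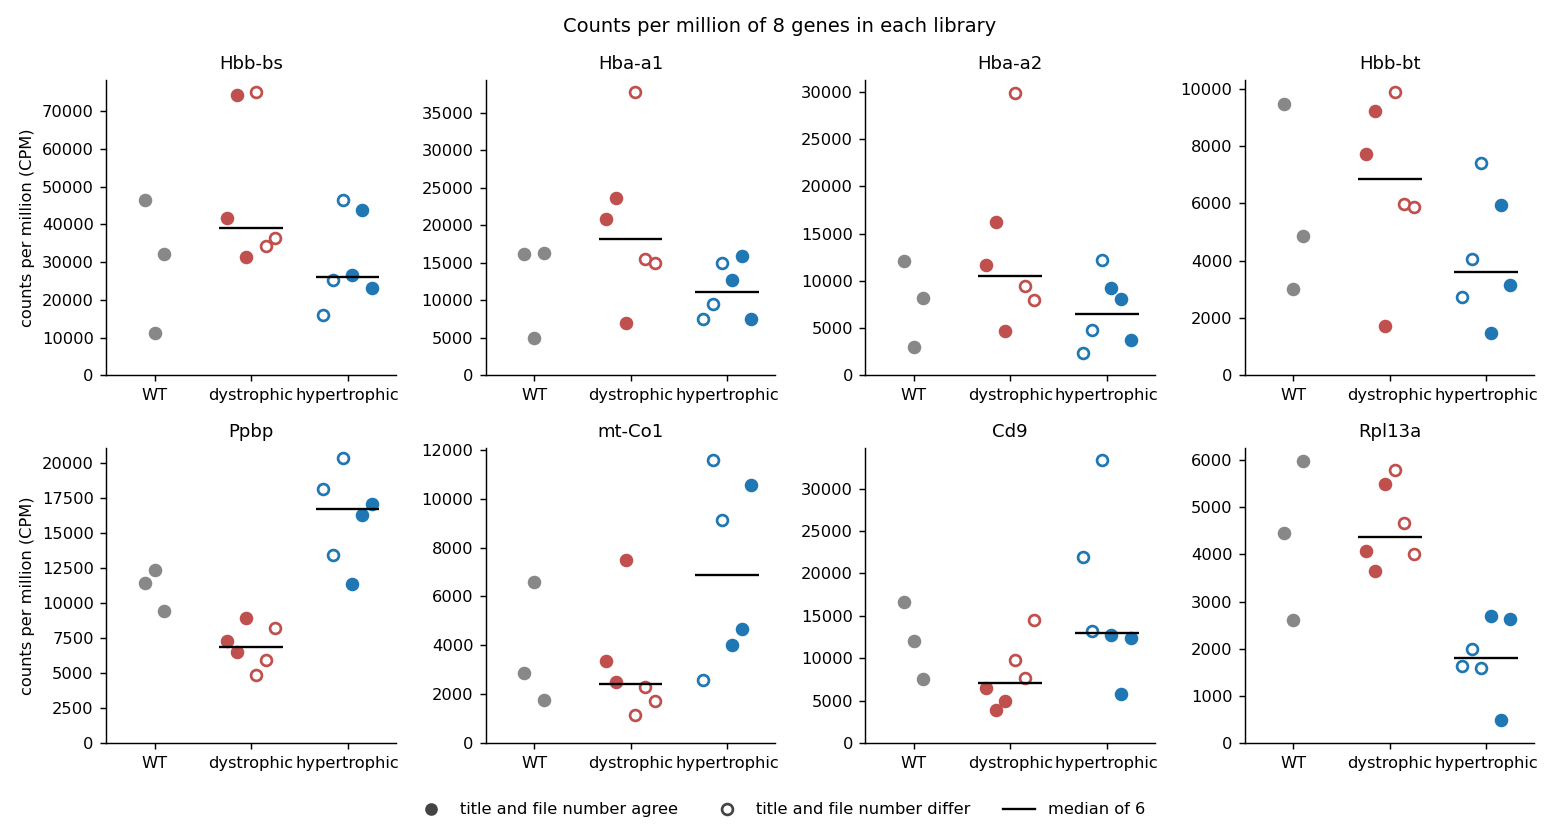
CPM of 8 genes in each of the 15 libraries by condition, on linear axes from 0, with a black line at the median of the 6 dystrophic and of the 6 hypertrophic libraries and with open circles for the 6 libraries whose title and file numbers differ. Ppbp is higher and Rpl13a is lower in all 6 hypertrophic libraries than in any dystrophic one, and the ranges of the other 6 genes overlap.

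Tetraspanins and class I histocompatibility molecules are surface proteins of many EVs, and in each list 1 gene held most of the reads. Cd9, a tetraspanin used to identify EVs and abundant in platelets, ran from 5783 to 33350 CPM (median, 12960) in hypertrophic and from 3924 to 14520 CPM (median, 7069) in dystrophic libraries. Only replicates 1 and 3 of the hypertrophic side lay above every dystrophic library, and the log2 fold change was 0.70 ± 0.34 (SE; edgeR adjusted p = 0.338). Over 9 tetraspanins tested, 5 were above and 4 below 0 (median, 0.34), and without hypertrophic replicate 3 or 1 there were 3 above and 6 below (medians, -0.69 and -0.22). B2m, the light chain of class I molecules, ran from 11690 to 25110 CPM in hypertrophic and from 7965 to 14890 CPM in dystrophic libraries, with 4 hypertrophic libraries above every dystrophic one, and its log2 fold change was 0.48 ± 0.31 (SE; edgeR adjusted p = 0.937). The summed class I list ran from 11790 to 27850 CPM and from 8725 to 15440 CPM, a ratio of means of 1.79, and WT libraries, from 15640 to 20820 CPM, were in the hypertrophic range. Of its 8 genes tested 5 were above and 3 below 0, with a median of 0.07 that ran from -0.44 without hypertrophic replicate 5 to 0.32 without replicate 4.

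The estimates for ribosomal protein mRNA were below 0 in nearly every gene, although none passed the test. Of 79 genes for proteins of the cytosolic ribosome that were tested, 78 were below 0, with a median log2 fold change of -0.85 against -0.52 for all genes tested and -0.02 for the broadly counted genes, to which 74 of the 79 belong. Without TMM scaling, which moved the median of the broadly counted genes from -0.02 to 0.31, 74 of the 79 were below 0 (median, -0.45), so the direction was kept. None of the 79 passed adjustment (edgeR), 4 were lower at an unadjusted p under 0.05 (Rpl13a, Rps20, Rpl24 and Rps4l), a smaller share than the 11.4% of all genes that were lower at that p, and none was higher. Their sum ran from 44910 to 104500 CPM in hypertrophic and from 98220 to 121100 CPM in dystrophic libraries, a ratio of means of 0.705. Hypertrophic replicates 1 to 3, between 44910 and 63190 CPM, accounted for the low end, and replicates 4 to 6, from 90890 to 104500 CPM, were close to the dystrophic range. The WT libraries spanned 44510 to 135700 CPM.

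Rpl13a (mm10, chr7:45125558-45128761, minus strand), which encodes a protein of the large ribosomal subunit, was the clearest single member. It ran from 489.8 to 2698 CPM (median, 1810) in hypertrophic and from 3642 to 5780 CPM (median, 4376) in dystrophic libraries. No hypertrophic library reached the lowest dystrophic one, and the log2 fold change was -1.54 ± 0.61 (SE; edgeR adjusted p = 0.129). Rpl18, another large subunit protein, showed the same lack of overlap by a narrow margin, with at most 928.7 CPM in hypertrophic and at least 934.9 CPM in dystrophic libraries. Rbm3, an RNA-binding protein induced by cold, was the third broadly counted gene without overlap, at 0 to 492.2 CPM and 511.4 to 1081 CPM. These 3 genes are 0.344% of the broadly counted genes. Over all genes tested 10 lay wholly lower in hypertrophic libraries (0.145%). After TMM scaling 2 broadly counted genes lay wholly lower, and 8 over all genes tested.

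Translation factors, which load and move the ribosome along mRNA, leaned the same way. Of 35 tested, 26 were below and 9 above 0 (median, -0.61), close to the median of -0.52 for all genes tested. Their 17 broadly counted members had 14 below and 3 above 0 (median, -0.56, beside -0.02 for all broadly counted genes). The sum had a ratio of means of 0.775. Eef1a1, the elongation factor that delivers tRNAs and the most abundant of them, had medians of 7830 CPM in hypertrophic and 14220 CPM in dystrophic libraries and a log2 fold change of -0.83 ± 0.37 (SE; edgeR adjusted p = 0.224). Dystrophic replicate 4, at 3733 CPM, was the lowest of all 12 libraries and the next dystrophic library was at 13140 CPM. Rps20, a small subunit protein, was between 484.4 and 1314 CPM in hypertrophic and between 1162 and 4724 CPM in dystrophic libraries, with 5 of 6 hypertrophic libraries below every dystrophic one. Vim, the intermediate filament vimentin, had medians of 661.6 and 2198 CPM with overlapping ranges.

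**Figure D3:**
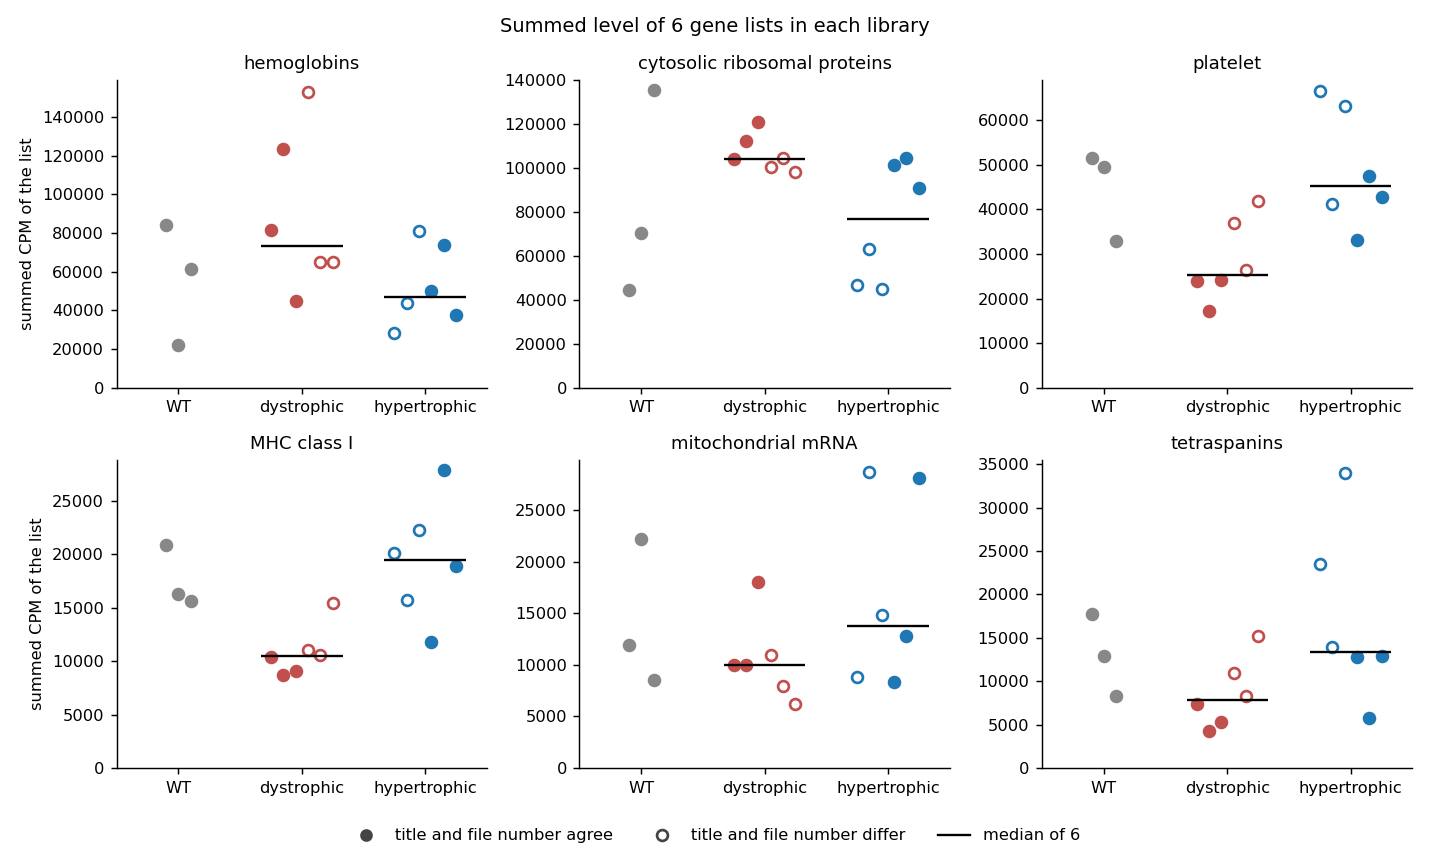
Summed CPM of 6 gene lists in each of the 15 libraries by condition, on linear axes from 0, with a black line at the median of 6 libraries and with open circles for the libraries whose title and file numbers differ. The hypertrophic libraries sit low for hemoglobins and ribosomal proteins and high for platelet and class I genes, and every list overlaps between the conditions.

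Mitochondrial transcripts gave different results for mRNA and ribosomal RNA. mt-Co1, which encodes a subunit of the enzyme that reduces oxygen at the end of the respiratory chain, ran from 2569 to 11560 CPM (median, 6886) in hypertrophic and from 1137 to 7500 CPM (median, 2409) in dystrophic libraries, a log2 fold change of 1.23 ± 0.53 (SE; edgeR adjusted p = 0.191). The dystrophic range reached 7500 CPM through replicate 3 alone, and the next was at 3362 CPM. Of 7 mitochondrial mRNAs tested, 6 were above 0 (median, 1.17, but 0.50 without hypertrophic replicate 2 and 0.72 without replicate 6), among them mt-Nd1 at 1.17 ± 0.83 (SE) and mt-Nd2 at 1.46 ± 1.06 (SE), subunits of the chain's first complex, whereas mt-Nd4 of the same complex, with medians of 1666 and 1246 CPM, was the 1 not above 0 (edgeR adjusted p = 0.9998). The summed mRNA level had a ratio of means of 1.61. The ribosomal RNAs mt-Rnr1 and mt-Rnr2 had a ratio of 1.02, from 49970 to 162400 CPM in hypertrophic and from 54300 to 180800 CPM in dystrophic libraries, and all 3 WT libraries, from 189800 to 206900 CPM, lay above both. Nuclear genes of the respiratory chain did not follow the mitochondrial mRNAs upward. Of 77 tested, 60 were below 0 (median, -0.73), beside a median of -0.52 for all genes tested. Their 18 broadly counted members lay nearer to 0, with 6 above and 12 below it (median, -0.195, beside -0.02 for all broadly counted genes).

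Muscle and matrix transcripts were rare. The 26 contractile genes of skeletal muscle summed to at most 1017 CPM in any hypertrophic and 842.2 CPM in any dystrophic library (medians, 419.9 and 490.9 CPM), and Tpm1, a tropomyosin also made outside muscle, had the highest mean level of them. Of the 10 tested, 3 were above and 7 below 0, and none reached an unadjusted p under 0.05. Of the muscle growth and atrophy list, 3 of 13 genes tested were lower at an unadjusted p under 0.05, beside 11.4% of all genes: Fbxo32 (a ubiquitin ligase of muscle atrophy), Foxo3 (a transcription factor that drives it) and Gdf11 (a ligand related to myostatin). Each had no read in any hypertrophic library and was counted in 3 dystrophic libraries, at no more than 79.22 CPM. They entered the test through the libraries that counted them, so each p is that of a level against 0. Of all 784 lower genes, 758 likewise had 3 counts or fewer in every hypertrophic library. In WT libraries Fbxo32 reached 65.9 CPM and Foxo3 16.93 CPM, and Gdf11 had no read. The 16 genes of extracellular matrix and fibrosis had medians of 628.1 CPM in hypertrophic and 1050 CPM in dystrophic libraries, with ranges of 6.084 to 1121 CPM and 0 to 3620 CPM, and 11 of 13 tested were below 0 (median, -1.96, and -0.80 without dystrophic replicate 5).

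The remaining broadly counted genes of smallest p were Prkar2b, Gm12840 and Yam1. Prkar2b, a regulatory subunit of protein kinase A, ran from 2.217 to 2038 CPM (median, 1071) in hypertrophic and from 100.4 to 560.9 CPM (median, 177.4) in dystrophic libraries, and 5 of 6 hypertrophic libraries lay above every dystrophic one while replicate 4 lay below them all. Its log2 fold change was 1.83 ± 1.25 (SE; edgeR adjusted p = 0.9998). Gm12840, a long noncoding RNA, had medians of 3277 and 1706 CPM and a log2 fold change of 1.12 ± 0.78 (SE). Yam1 had a log2 fold change of -0.93 ± 0.40 (SE; edgeR adjusted p = 0.193) although its median was 7122 CPM in hypertrophic and 2085 CPM in dystrophic libraries, because dystrophic replicate 5 held 44260 CPM. Without that library the log2 fold change was 1.35.

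Some mRNAs made chiefly by liver were counted mainly on the hypertrophic side. Ttr, which encodes transthyretin, a carrier of thyroid hormone made chiefly by liver and choroid plexus, was counted in 4 hypertrophic libraries at 31.11 to 498.9 CPM and in no dystrophic or WT library. In WT replicate 1 a count of 0 allowed up to 110.2 CPM. Apoa1, the main apolipoprotein of high-density lipoprotein, was counted in 3 hypertrophic libraries at up to 393.9 CPM and in no dystrophic library. Apoa2, its partner, was counted in 3 hypertrophic libraries at up to 906.6 CPM and in 1 dystrophic library at 1.709 CPM. In WT libraries Apoa1 reached 1.662 CPM and Apoa2 65.77 CPM. None of the 3 passed adjustment (edgeR adjusted p = 0.123 for Ttr), and as they had next to no reads in dystrophic libraries, they entered the test through the libraries where they were high. The libraries that counted Ttr and those that counted Apoa1 overlapped only in replicates 2 and 6. Apoe, another apolipoprotein, was counted in 4 hypertrophic and 6 dystrophic libraries. Its median was lower in hypertrophic libraries, at 184.7 against 274.1 CPM. The 1 broadly counted gene of the liver list had a log2 fold change of -0.18. Summed over the 25 liver genes, the level was 255 to 7207 CPM in hypertrophic and 3.108 to 1046 CPM in dystrophic libraries, and hypertrophic replicate 5 alone held the highest value, the next being 2443 CPM. The WT sums ran from 29.92 to 1800 CPM.

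Immune cell markers overlapped between the conditions. Of 7 class II histocompatibility genes tested all were below 0 (median, -0.80), but the sums overlapped, at 640.6 to 3508 CPM in hypertrophic and 1636 to 3139 CPM in dystrophic libraries. B and T cell genes had 7 above and 10 below 0, with 1 of 17 lower at an unadjusted p under 0.05 (Trbc1, a T cell receptor constant gene), beside 11.4% of all genes. Monocyte and macrophage genes had 3 above and 5 below 0 with none past that p. Neutrophil genes had 1 above and 3 below 0, with 1 of 4 lower at that p, and medians of 226.9 and 355.2 CPM for the sum of 13 genes.

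With the labels as given, more genes were counted in dystrophic than in hypertrophic libraries. Of 11544 genes with 10 or more counts in at least 1 of the 12 libraries, 7717 were counted in more dystrophic libraries, 1719 in more hypertrophic libraries and 2108 in as many of both. Depth differed as well: the median was higher in hypertrophic libraries, but the mean was higher in dystrophic ones (7178625 against 3344775 reads) and the 2 shallowest of the 12 libraries were hypertrophic. After all libraries were sampled down to 328710 reads, 5257 genes were counted in more dystrophic and 2427 in more hypertrophic libraries. Without the 6 libraries with crossed numbers the counts were 4920 and 1596. With the conditions of the 6 exchanged the direction turned, with 3664 genes counted in more dystrophic and 5038 in more hypertrophic libraries. Fisher's exact test (two-sided) on the numbers of libraries gave 20 genes at an unadjusted p under 0.05 (0.173%), all of them counted in more dystrophic libraries, and none after adjustment over all genes (after sampling down, 17 genes, of which 1 was counted in more hypertrophic libraries; smallest exact p = 0.00217, the smallest 6 against 6 allows, adjusted p = 1.0). Dnajc15, a co-chaperone of mitochondrial protein import, and Nudcd2 were the only genes counted in all 6 dystrophic and no hypertrophic library. Dnajc15 was between 16.96 and 672.6 CPM in dystrophic libraries, and Nudcd2 was between 1.044 and 266.1 CPM. Igf2, the fetal insulin-like growth factor, was counted in all 6 dystrophic libraries (71.76 to 377.3 CPM) and in 1 hypertrophic library (70.68 CPM). No gene was counted in all 6 hypertrophic and no dystrophic library. These genes were picked out for this pattern, so their values describe it.

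**Figure D4:**
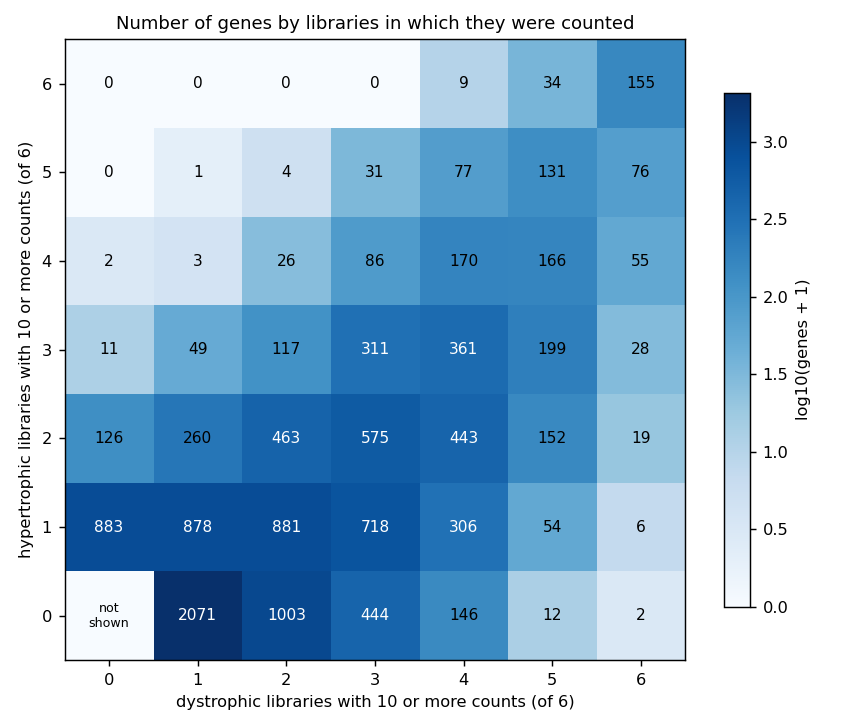
Number of genes by how many of 6 dystrophic (horizontal axis) and 6 hypertrophic libraries (vertical axis) had 10 or more counts of them, with the shade on a log10 scale. The lower right side is fuller, with 2 genes at 6 dystrophic and 0 hypertrophic libraries and 0 genes at the opposite corner, and 155 genes were counted in all 12.

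The libraries did not group by condition. On log2 CPM of the genes tested, 10.4% of the squared distance between the 12 libraries lay between the conditions, where the mean over all 924 ways to split them 6 against 6 is 9.09% (exact permutation test, one-sided p = 0.24). For the broadly counted genes the share was 4.94% (exact p = 0.959). Without the 6 libraries with crossed numbers the share was 18.8%, where the mean over the 20 splits of 3 against 3 is 20% (exact p = 0.5), and with their conditions exchanged it was 6.25% (exact p = 0.853).

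The comparison was made again in the 3 against 3 libraries of the lower and the 3 against 3 of the higher title series, which share no library. Over the 873 broadly counted genes the differences of mean log2 CPM in the lower and higher series went opposite ways more often than the same way, with 361 genes (41.4%) of the same sign and a correlation across genes of -0.23 (Pearson) and -0.21 (Spearman). The genes are not independent replicates and the number describes these libraries. The median difference was 0.58 in the lower and -0.99 in the higher series. For Hbb-bs the edgeR log2 fold change was -0.59 ± 0.26 (SE) in the lower and -1.44 ± 0.27 (SE) in the higher series, for Rpl13a -1.09 ± 0.84 (SE) and -1.93 ± 0.86 (SE), for mt-Co1 1.17 ± 0.73 (SE) and 1.32 ± 0.73 (SE), and for Ppbp 1.37 ± 0.49 (SE) and 0.47 ± 0.48 (SE), so these kept their direction. Cd9 did not, at 2.22 ± 0.48 (SE) and -0.77 ± 0.46 (SE). Of the 79 ribosomal protein genes, 75 were below 0 in the lower and 75 in the higher series. In the higher series the edgeR median was -0.81 for the ribosomal protein genes and -0.55 for the broadly counted genes. Before TMM scaling the ribosomal protein sums there were close, at 90890 to 104500 CPM in hypertrophic and 98220 to 104600 CPM in dystrophic libraries. All 4 hemoglobins were below 0 in both series.

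The results depended on the 6 libraries with crossed numbers. Without them, in 3 against 3 libraries, all 4 hemoglobins stayed below 0 (Hbb-bs, -1.03 ± 0.30 SE, edgeR adjusted p = 0.726), 67 of 77 ribosomal protein genes were below 0 (median, -0.41), 20 of 27 platelet genes were above 0, and Ppbp was at 0.80 ± 0.52 (SE), with 0 genes past adjustment by edgeR and 155 at an unadjusted p under 0.05. In that fit the median was -0.68 over all 3776 genes tested and -0.14 over the broadly counted genes. The ribosomal protein median was thus less far below 0 than that of all genes tested. With the conditions of the 6 exchanged, 18 of the 19 genes followed here changed sign: Hbb-bs was at 0.12, Hba-a1 at 0.36, Ppbp at -0.26, Rpl13a at 0.43 and mt-Co1 at -0.59, and B2m kept its direction at 0.11. By edgeR 0 genes passed adjustment after the exchange and 344 were at an unadjusted p under 0.05, 69 of 79 ribosomal protein genes were above 0, and 13 of 28 platelet genes were above 0. The direction of each of these results therefore holds for the libraries as labelled, and which of the numbers is right was not tested.

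**Figure D5:**
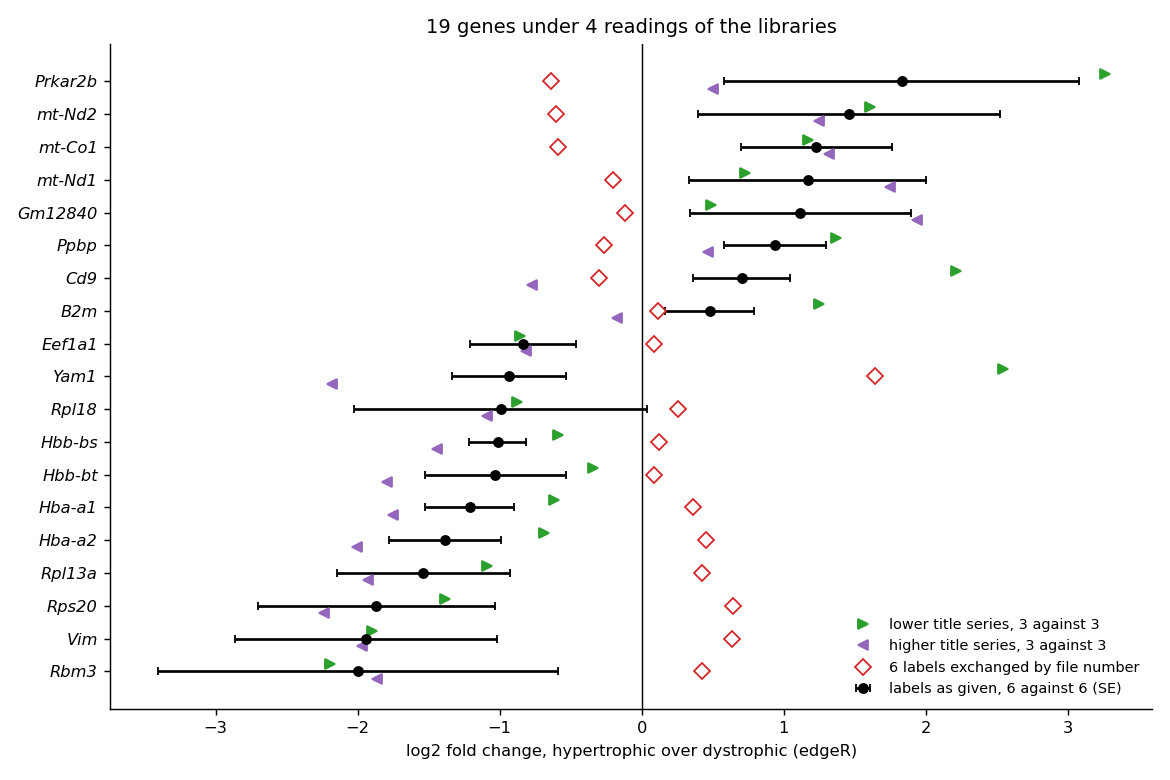
Log2 fold change (edgeR, hypertrophic over dystrophic) of 19 genes with the labels as given (black, bars are 1 SE), within the lower (green) and higher (purple) title series and with 6 labels exchanged (red diamonds). The diamonds lie across 0 from the black points for 18 of the 19 genes, and the green and purple points lie on one side of 0 for all but Cd9, B2m and Yam1.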

How the data were processed

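Raw counts of reads per gene symbol were deposited by the authors for each library, without normalization or filter. Per the study's methods, 50-base single reads were aligned with TopHat to mm10, and the submitters' processing notes also name HTSeq and DESeq. Settings and annotation are not given in the sources used here, and labels and methods differ on kit and sequencer. The 5 summary lines of each table, 63.2% to 87.4% of its numbers in the 12 libraries, were left out. Gene positions are from GENCODE M21, which holds 39483 of the 43472 symbols.

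Groups come from the titles, and replicate numbers only name libraries. All p-values measure the spread between pooled libraries, which may be technical, since no label says that pools came from separate mice. edgeR 4.0.16 (R 4.3.3; limma 3.58.1) was run with TMM, filterByExpr and a quasi-likelihood fit of 3 conditions to all 15 libraries. Adjusted p-values are Benjamini-Hochberg over all genes tested. Standard errors were derived from the F statistic, which takes in the spread between libraries. DESeq2 1.42.0 was an alternative. DESeq, named by the study, was not run. The main edgeR fit and the split test were tried on simulated data, and Fisher's test on a fixed table. The simulated counts had equal library sizes and a smaller spread than these data, so they do not show how the fit performs here. DESeq2, the interaction and the covariate fits were not tried on simulated data. Intervals and limits cover counting error only.

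Genes named singly were the adjusted calls, the 8 broadly counted genes of smallest p in each direction, those without overlap, the 6 of highest level, list members of highest level or smallest p, model and EV marker genes and Hbb-bt. Pf4, Dnajc15, Nudcd2 and Igf2 fall outside this rule and were picked after their values were seen. The members and the gene lists were chosen with earlier results of these data known.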

Additional observations from a re-analysis of the deposited data

Results flagged for a closer look

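In 4 genes the difference between the conditions was not the same in the lower and the higher title series, by edgeR's interaction of condition and title series over 6887 genes (4 genes at adjusted p under 0.05, 563 at unadjusted p under 0.05). The interaction is the log2 fold change in the higher series minus that in the lower series. For Tmsb4x, the actin-binding thymosin β4, it was -2.58 ± 0.39 (SE; edgeR adjusted p = 2.41e-07), with a log2 fold change of 1.40 in the lower and -1.18 in the higher series. For Yam1 it was -4.72 ± 0.81 (SE; edgeR adjusted p = 1.73e-05), and the higher series included dystrophic replicate 5, at 44260 CPM. For mt-Rnr2, the large mitochondrial ribosomal RNA, it was -1.35 ± 0.24 (SE; edgeR adjusted p = 3.50e-05). For Cd9 it was -2.99 ± 0.67 (SE; edgeR adjusted p = 0.013), with 13190 to 33350 CPM against 3924 to 6460 CPM in the lower series and 5783 to 12740 CPM against 7678 to 14520 CPM in the higher series. The higher series holds the dystrophic and the lower series the hypertrophic libraries with crossed numbers, and the part of that in these differences was not tested.

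In 12 of 68 groups of 6 values, 1 library lay apart from the others of its condition by Dixon's criterion. For independent normal values chance gives about 1 in 20. Levels in CPM need not be normal and some of these groups share genes, so the 12 cannot be set against that rate. Dystrophic replicate 6 had 32560000 reads on genes, and it was high for B2m (14890 CPM), for the summed class I list (15440 CPM) and for Prkar2b (560.9 CPM). Dystrophic replicate 4 was low for Eef1a1 (3733 CPM) and for translation factors (11600 CPM). Dystrophic replicate 3 was high for mt-Co1 (7500 CPM), dystrophic replicate 2 for mt-Nd2 (1198 CPM) and dystrophic replicate 5 for Yam1 (44260 CPM). On the hypertrophic side, replicate 3 was high for heme synthesis and iron import (7435 CPM), replicate 4 for Vim (1678 CPM) and replicate 5 for liver plasma proteins (7207 CPM).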

How the results depend on the processing

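With 1 library left out in turn, the number of genes past adjustment ran from 0 to 2 and that at an unadjusted p under 0.05 from 482 to 1888, the genes at an unadjusted p under 0.05 in Fisher's exact test of libraries from 21 to 205, the median of the broadly counted genes from -0.14 to 0.11, the correlation between the title series from -0.26 to -0.15 and the share of squared distance between the conditions from 9.14% to 15.6%. Hbb-bs kept its call in 9 of the 15 fits. Past adjustment, edgeR gave 0 genes without the expression filter, with the broadly counted genes alone, without mitochondrial and hemoglobin genes, without the crossed libraries, with labels exchanged and with exchange and the file series as covariate, against 1 as reported, 3 within the lower and 3 within the higher title series, 4 for the interaction, 3 with labels exchanged within the lower and 0 within the higher file series and 323 with DESeq2. At an unadjusted p under 0.05 these fits gave 4382 genes without the filter, 11 with the broadly counted genes alone, 155 without the crossed libraries, 344 with labels exchanged, 264 with exchange and covariate, 466 within the lower and 182 within the higher series, 20 without WT (2573 genes tested) and 412 after all libraries were sampled down. The median of the broadly counted genes was 0.28 with DESeq2, 0.31 without TMM, 0.33 within the lower and -0.55 within the higher series, and that of all genes moved from -0.52 to -0.37 without TMM and -0.35 with DESeq2.

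With labels exchanged, the genes that changed direction were Hbb-bs (0.12), Ppbp (-0.26), mt-Co1 (-0.59), Cd9 (-0.30), Prkar2b (-0.64), Gm12840 (-0.12), mt-Nd1 (-0.20), mt-Nd2 (-0.60), Hba-a1 (0.36), Hba-a2 (0.45), Rpl13a (0.43), Yam1 (1.65), Eef1a1 (0.089), Rps20 (0.64), Vim (0.63), Rbm3 (0.42), Rpl18 (0.26) and Hbb-bt (0.090). With the file series as covariate as well, they were Ppbp (-0.12), mt-Co1 (-0.62), Gm12840 (-0.40), mt-Nd1 (-0.40), mt-Nd2 (-0.52), Hba-a1 (0.14), Hba-a2 (0.17), Rpl13a (0.23), Yam1 (1.77), Eef1a1 (0.10), Rps20 (0.41), Vim (0.62), Rbm3 (0.52) and Rpl18 (0.22). Exchanged within the lower file series, they were Hbb-bs (0.41), mt-Co1 (-0.69), Gm12840 (-1.12), mt-Nd1 (-0.91), mt-Nd2 (-0.34), Hba-a1 (0.71), Hba-a2 (0.83), Rpl13a (0.65), Yam1 (4.13), Eef1a1 (0.074), Rps20 (0.83), Vim (0.65), Rbm3 (0.36), Rpl18 (0.33) and Hbb-bt (0.56), and within the higher file series Ppbp (-0.57), mt-Co1 (-0.54), Cd9 (-1.45), B2m (-0.47), Prkar2b (-1.26), mt-Nd2 (-0.70), Eef1a1 (0.12), Vim (0.58), Rbm3 (0.69) and Rpl18 (0.11). Yam1 also turned with the title series as covariate (0.18), within the lower title series (2.55), without the crossed libraries (1.95) and without dystrophic replicate 5 (with 1 library left out it ran from -1.17 to 1.35), and within the higher title series Cd9 (-0.77) and B2m (-0.17) did. Exchange took the ratio of summed levels to 1.10 for hemoglobins, 0.968 for platelet, 1.11 for class I, 1.29 for matrix and 1.22 for ribosomal protein genes, the genes at an unadjusted p under 0.05 in Fisher's exact test to 1 (0 without the crossed libraries, where 3 against 3 cannot reach that p) and the correlation between series, then by file number, to -0.049, which was 0.011 over all genes tested. The cause was not tested. The interaction, the exchange within each file series and the list medians under each fit were added after seeing the data. No paired analysis was possible because the labels give no replicate numbers, and the library numbers of the titles only name libraries. Depth limits rare genes most, since a gene at 0 in the shallowest of the 12 libraries could be at up to 9.13 CPM.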

Other observations

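Genes of vesicle traffic gave no common direction. Of 23 genes of EV sorting tested, 10 were above and 13 below 0 (median log2 fold change, -0.22), and their sum was 3231 to 5002 CPM in hypertrophic and 2383 to 4079 CPM in dystrophic libraries. SNARE genes, whose products fuse vesicles with membranes, had 8 above and 12 below 0 and a ratio of mean summed levels of 1.43, and Rab GTPases, which direct vesicles, had 14 above and 21 below 0 and a ratio of 1.15. Genes of protein breakdown were lower in sum: the proteasome had a ratio of 0.674 and 33 of 44 genes below 0, but its median of -0.54 was close to that of all genes tested and its 7 broadly counted members had a median of 0.35, and ubiquitin and E2 genes had 25 of 32 below 0 and a ratio of 0.755. Splicing factors had 24 of 30 below 0 (median, -1.04, beside -0.52 for all genes tested) and a ratio of 0.632. Histone genes had 8 above and 8 below 0. At an unadjusted p under 0.05, 2 of 23 EV sorting, 2 of 20 SNARE, 2 of 35 Rab, 3 of 44 proteasome, 3 of 32 ubiquitin and E2 and 1 of 30 splicing genes were lower, beside 11.4% of all genes tested, and 1 of 16 histone genes was higher. None passed adjustment (edgeR).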
